A study of Mus musculus with 2 samples.

Results

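PI3K, Akt and mTOR signalling was examined through 40 genes of the mouse pathway, chosen by name as pathway genes, out of 21938 protein-coding genes on the autosomes and sex chromosomes. All 40 were found in the GENCODE M21 annotation of mm10. Accessible chromatin was measured by ATAC-seq, in which a transposase inserts adapters into DNA that is open to it, in activated regulatory T cells of adult male mice aged 4 months that carry the Foxp3CreERT2 and Rosa26YFP alleles. The Cre is driven from the Foxp3 locus, and Rosa26YFP is a reporter of Cre activity; the labels do not say how the cells were activated or sorted. Both libraries, technical replicates 1 and 2 of biological replicate 1, belong to 1 group, and no control group is named. The peak lists come from 1 alignment and are deposited for the series, not per library, so no SD can be given, the sequencing depth is unknown and no comparison between conditions was possible.

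In this pathway, class I PI3K makes the membrane lipid PIP3, which recruits PDK1 and Akt. Akt and growth signals release the GTPase Rheb from the TSC complex, amino acids act through the Rag GTPases, and both inputs meet at the kinase mTOR in its complexes mTORC1 and mTORC2. Foxo factors, members of the forkhead family, are substrates of Akt, and in regulatory T cells strong PI3K and Akt activity is known to work against the lineage whereas mTORC1 activity supports suppressive function.

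Overlapping peaks of the thresholded list were merged into 26090 regions. A region within 1000 bp of any transcription start site (TSS) of a gene is called its promoter region, and a region over 1000 bp from every protein-coding TSS is called distal. Each region was assigned to the protein-coding gene whose TSS was nearest to its strongest summit, within 100 kb, which names a neighbour and not a regulatory target. The signal value is the enrichment that the authors' peak caller wrote for each peak, and it is used here to rank regions within a list. The cell label was checked against marker genes. Promoter regions were found at 5 of 6 T cell markers (all but Cd4) and 5 of 6 regulatory T cell markers (all but Tnfrsf18), with a promoter signal value of 9.991 at Foxp3. They were found at 0 of 6 myeloid markers, 2 of 6 NK and CD8 T cell markers (Cd8b1 and Gzma) and 1 of 6 erythroid markers (Klf1). Of the B cell markers, Pax5 and Blk had a promoter region and Cd79a, Cd79b and Ms4a1 had none. Cd79a, Ms4a1, Lyz2, Csf1r and Cd8a had no thresholded region assigned at all, whereas the NK cell marker Klrb1c had 8 distal regions and no promoter region.

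Almost every gene of the pathway had an accessible promoter. A promoter region was present at 38 of the 40 genes (95%, 95% Wilson interval 83.5 to 98.6), against 49.1% of all protein-coding genes. The exceptions were Pik3r6 and Rragd. Large genes and gene deserts collect more regions, so each gene was also set against genes with a territory of like size, the territory being the bases nearest to the gene's TSSs and within 100 kb. Genes in the same 10 classes of territory size, weighted by the number of pathway genes in each, had a promoter region in 49.4%. Intervals cover counting error only, and the comparison is with all genes, many of which are silent in T cells. Genes of like expression level were not compared.

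Regions assigned to the pathway genes were also numerous. At least 1 region was assigned to 38 of 40 genes, against 53.1% of all genes and 55% after weighting by territory class. The 40 genes held 114 regions in all, where the means of their territory classes add up to 51.5, a ratio of 2.21. The mean was 2.85 regions per gene against 1.13 over all genes and 1.29 after weighting, and the median was 2 against 1. More regions than the median of the own territory class were assigned to 27 genes (67.5%, interval 52 to 79.9), against 34.8% of all genes and 34.3% after weighting. In classes of small territories that median was 0, so Inppl1, Mlst8, Rps6kb2 and Lamtor1 counted as above it with a promoter region alone. Single regions were the commonest case, with 15 genes holding 1 region and 10 holding 2, and 10 genes held 4 or more.

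Distal regions were spread less evenly than promoter regions. A distal region was assigned to 22 of 40 genes (55%, interval 39.8 to 69.3), against 27.6% of all genes and 32% after weighting. There were 65 distal regions where the class means add up to 30. Pik3r1, Sgk1, Phlpp1 and Sesn3 together held 31 of these 65 (47.7%), and 16 genes had a promoter region and no distal region. The plot of regions per gene shows this unevenness by role. Among peaks with an IDR (irreproducible discovery rate, a measure of disagreement between the inputs compared) of 0.01 or below, 39 distal regions and 36 genes with a promoter region were left, and 45.6% of all genes had a promoter region. At this limit 17 of the 40 genes had a distal region, against 21.4% of all genes.

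**Figure D1:**
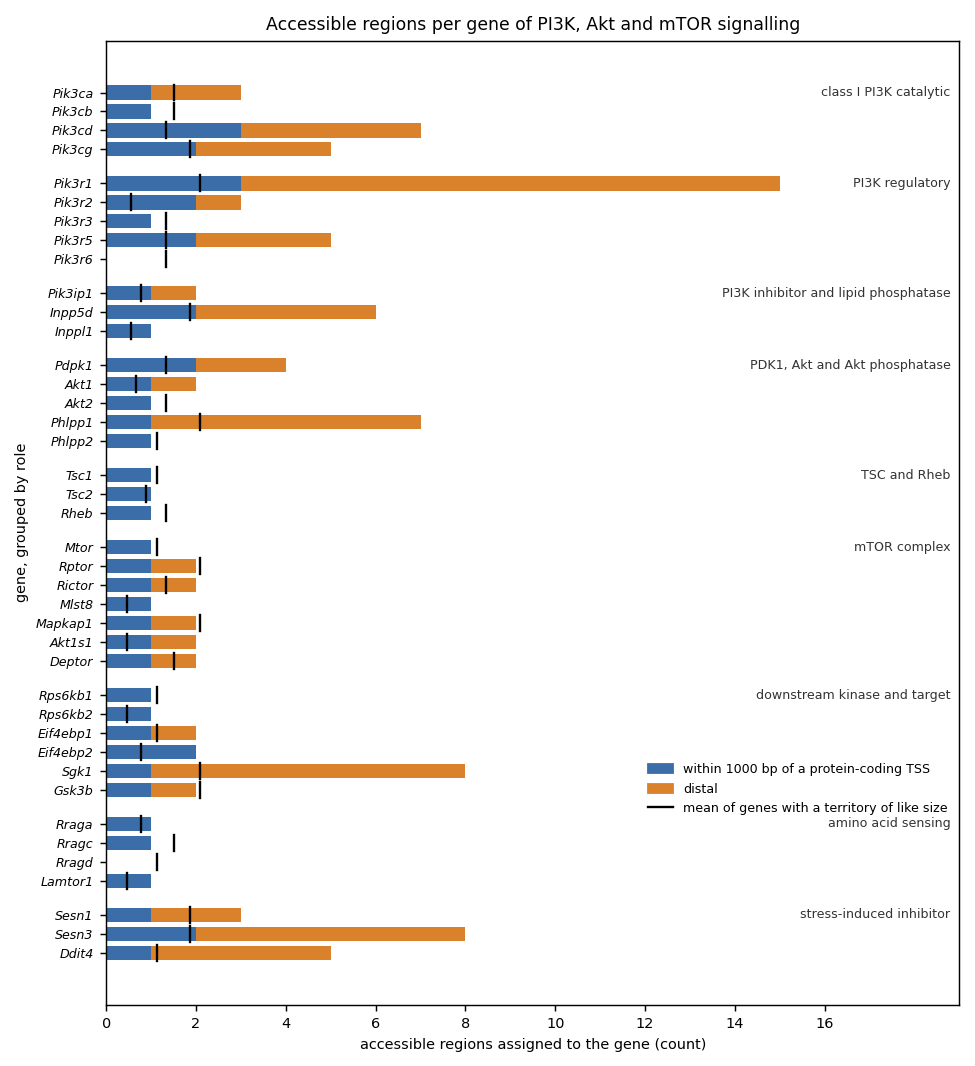
Number of accessible regions assigned to each of the 40 genes (horizontal axis, count), split into regions within 1000 bp of a protein-coding TSS (blue) and distal regions (orange), with genes grouped by role on the vertical axis. Black marks give the mean of genes in the same class of territory size. Pik3r1 stands at 15 regions, Sgk1 and Sesn3 at 8, while the TSC, Rheb and amino acid sensing genes have at most 1 each.

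The 4 class I catalytic subunits all had a promoter region and together held 16 regions, 9 of them distal, where class means add up to 6.24 and 3.93. The subunits differed. Pik3ca, the broadly expressed p110α, held 3 regions, among them a promoter region at signal value 17.09 and a distal region in a coding exon at 15.68. Pik3cb, which encodes p110β, held only its promoter region at 13.46. The leukocyte-enriched subunits Pik3cd (p110δ) and Pik3cg (p110γ) held 7 and 5 regions, in the 98.5th and 86.7th percentile of their territory classes. These percentiles are counted as the percent of class members with fewer. Pik3ca lay in the 78.4th and Pik3cb in the 39.7th percentile. Among peaks with an IDR of 0.01 or below, Pik3ca held 3 regions, Pik3cb 1, Pik3cd 3 and Pik3cg 4. The difference in number between Pik3ca and Pik3cd thus depended on the threshold.

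Pik3cd combined weak promoter regions with distal regions of a wide range of strength. Its 3 promoter regions had signal values of 7.398, 5.386 and 3.986, and the strongest of them, at the downstream start of Pik3cd-203, ranked at the 2.76th percentile of all genes with a promoter region. The most upstream annotated start (Pik3cd-213) had no thresholded region. Within 1000 bp of it lay 2 regions that only the pseudoreplicated list holds, a less strict list of 50037 regions, at 4.213 and 4.056 with an IDR of 0.162 and 0.117. By contrast, the strongest distal region of the whole pathway lay 8160 bp upstream of the gene at chr4:149710528-149710928 (mm10), in intergenic sequence, with a signal value of 31.43 and the 99.8th percentile of all distal regions. The ranking values in the 2 inputs of the IDR comparison, by their size −log10 p-values, were 112.7 and 109.8. A further distal region in intron 8 reached 20.43. The other 2 distal regions were weak, at 7.484 in the 3' UTR of the neighbour Clstn1 and at 4.903 in intron 1, the 13.4th and 2.79th percentile of all distal regions.

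The window from 100 bp before to 100 bp after the summit of that upstream Pik3cd region is shown because it carries the highest distal signal of the pathway, and it was picked after the values were seen. Capitals mark a match to the RUNX letters TGTGGTT. The strand is the plus strand of mm10, as for every sequence below.
Pik3cd upstream distal, chr4:149710631-149710831: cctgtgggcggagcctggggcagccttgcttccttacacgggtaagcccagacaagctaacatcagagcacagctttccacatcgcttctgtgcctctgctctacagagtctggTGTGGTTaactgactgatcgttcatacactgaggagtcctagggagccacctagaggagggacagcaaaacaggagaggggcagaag

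Pik3cg held a promoter region at 11.82 and a weaker one at 4.311 near the start of Pik3cg-205, 2673 bp inside the gene. Its 3 distal regions had signal values of 13.66, 11.31 and 10.85. The one at 11.31 lay 83653 bp upstream, the longest distance from a TSS among the 65 distal regions.

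The 5 regulatory subunit genes held 24 regions where class means add up to 6.63, and 15 of these belonged to Pik3r1. Pik3r1 encodes p85α, the adaptor that stabilises the catalytic subunits and binds phosphorylated receptors, and shorter isoforms that start inside the gene. Only 37 of all protein-coding genes (0.169%) held 15 or more regions, and 1.37% of the genes in its class of largest territories held as many or more. Its 3 promoter regions lay at the start of the 724-residue p85α transcript (Pik3r1-202, signal value 14.65), at an internal start 66113 bp downstream (Pik3r1-203, annotated as a retained intron, 15.25) and at the start of a 112-residue model 73617 bp downstream (Pik3r1-204, 5.717). The start of a transcript of 454 residues, 75587 bp downstream, had no region within 1000 bp in the thresholded or the pseudoreplicated list. Isoform use cannot be read from these peaks.

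The 12 distal regions of Pik3r1 ranged from 3.934 to 21.07 in signal value. Most were weak: 8 lay in introns 1, 2, 4 and 7, and of these only a region in intron 2 at 14.72 exceeded 7. The strongest pair lay beyond the 3' end of the gene, at 21.07 (chr13:101658773-101659472) and 19.23 (chr13:101668886-101669230), 108996 and 99148 bp downstream of the 5' end. Nearly all of these regions had like ranking values in both IDR inputs. The exception, a region in intron 2 at 6.902, had ranking values of 58.56 and 22.23, a ratio of 2.63, and was the only 1 of the 65 distal regions of the pathway outside a 2-fold range. All 50 promoter regions lay inside that range. Peaks of the thresholded list were kept by their IDR between the same 2 inputs, which favours like values in advance. The share over all regions was not counted.

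The other regulatory genes split by subunit. Pik3r2 (p85β) held 3 regions, with promoter regions at 14.18 at its 5' end and 10.85 at an internal start 7049 bp downstream, and a distal region beyond its 3' end at 6.437. Pik3r3 (p55γ) held only a promoter region, at 23.15. Pik3r5 and Pik3r6, neighbours on chromosome 11, encode the p101 and p84 partners of p110γ. Pik3r5 held 5 regions, 2 of them promoter regions at 10.24 and 6.834, with a distal region at 17.59 lying 14106 bp upstream. Pik3r6 had no thresholded region, and its only region in the pseudoreplicated list lay 3836 bp upstream with a signal value of 8.412 and an IDR of 0.115. Of these neighbouring genes, only Pik3r5 thus held thresholded regions.

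**Figure D2:**
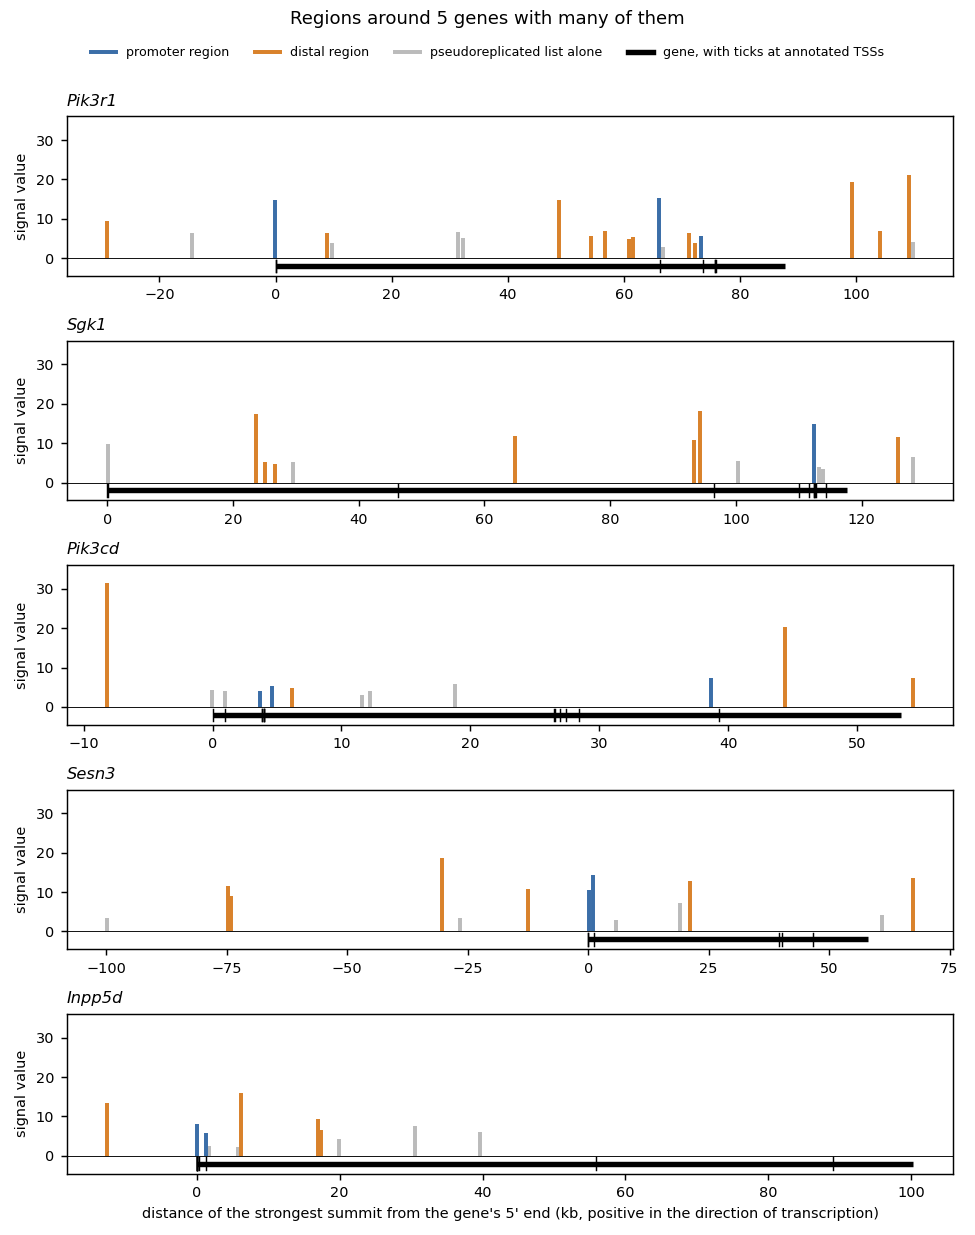
Signal value of each region (vertical axis, peak caller's unit) against the distance of its strongest summit from the gene's 5' end (horizontal axis, kb, positive in the direction of transcription) for Pik3r1, Sgk1, Pik3cd, Sesn3 and Inpp5d. Blue bars are promoter regions, orange bars distal regions and grey bars regions of the pseudoreplicated list alone; the black line is the gene with ticks at annotated TSSs. In Pik3r1 and Pik3cd the tallest distal bars (21.07 and 31.43) stand outside the gene.

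Brakes on PI3K acting at the receptor or on its lipid product also carried more regions than their territory classes. Pik3ip1 (a transmembrane inhibitor of PI3K), Inpp5d (SHIP1, the lipid phosphatase of blood cells) and Inppl1 (SHIP2, its broadly expressed relative) held 9 regions against 3.2 from class means. Inpp5d accounted for 6 of them, and 91.1% of genes in its class held fewer. Its promoter regions were weak, at 7.971 and 5.795, with a CpG observed/expected ratio of 0.128 at the stronger one. That was the lowest ratio among the promoter regions of the pathway. The distal regions of Inpp5d had signal values of 15.99, 13.4, 9.459 and 6.472, and the strongest lay in intron 1, 6258 bp inside the gene. Inppl1 held the weakest strongest-promoter region of the pathway, at 6.654, and no distal region.

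Pik3ip1 showed an accessible start inside the gene. Its promoter region at 11.54 had its summit 2057 bp downstream of the 5' end. The region lay within 1000 bp of the starts of 4 internal transcripts and covered only that of Pik3ip1-204. The 5' end itself had only a pseudoreplicated region at 2.612 with an IDR of 0.388. Pik3cd, Inppl1 and Sgk1 also had no thresholded region within 1000 bp of their most upstream start. At Inppl1 this rests on the edge of the window, since a start 102 bp downstream had the region at 6.654 within 1000 bp. Counting only the most upstream start of each gene, 34 of 40 genes had a promoter region in the thresholded list and 39 of 40 in the pseudoreplicated list, so at each of these 4 genes the upstream start carried a weaker call.

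Among the kinases that read PIP3 and their phosphatases, Pdpk1, Akt1, Akt2, Phlpp1 and Phlpp2 all had a promoter region and held 15 regions against 6.55 from class means. Pdpk1 (PDK1, which phosphorylates the activation loop of Akt) held 4 regions, all at signal values over 11: promoter regions at 20.62 and 16.78, and distal regions at 24.67 in intron 11 and 11.78 in intron 1. The 20.62 region had its summit 1465 bp upstream of the 5' start and the 16.78 region lay at a downstream group of starts, while the starts 30130 and 57126 bp downstream of the 5' start had no region. Akt1 had a weaker promoter region. Its only thresholded promoter region, at 9.942, lay 616 bp upstream of the 5' end, the start of a model of 202 residues, and the start of the longest model, of 480 residues, was covered only by a pseudoreplicated region at 5.55 with an IDR of 0.197. A distal region of Akt1 at 13.22 lay beyond its 3' end. Akt2 held a promoter region at 14.71 and nothing else.

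Phlpp1 and Phlpp2 encode phosphatases that remove the hydrophobic motif phosphate of Akt, and their surroundings differed. Phlpp2 held only its promoter region at 16.36, whereas Phlpp1 held a promoter region at 21.17 and 6 distal regions between 7.561 and 19.85. Phlpp1 spans a territory of 325 kb, and 90% of genes in that largest class held fewer regions. A further 11 distal regions near Phlpp1 were in the pseudoreplicated list alone, with signal values of up to 12.48. The strongest thresholded one, at 19.85, lay 19752 bp upstream at chr1:106151821-106152390. A weaker one lay 25983 bp upstream at 8.108, 3 lay in introns 1, 3 and 10 at 11.26, 9.545 and 11.54, and 1 lay in a coding exon at 7.561.

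Summit windows of the strongest distal region are shown for the 4 genes with most distal regions, so that their sequence can be compared. Capitals mark RUNX matches, found in the Sgk1 and Phlpp1 windows.
Pik3r1 downstream distal, chr13:101659121-101659321: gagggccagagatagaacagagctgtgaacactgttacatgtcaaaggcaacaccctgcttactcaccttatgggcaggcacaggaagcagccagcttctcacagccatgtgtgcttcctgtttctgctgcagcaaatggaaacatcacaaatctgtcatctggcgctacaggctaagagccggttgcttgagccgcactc
Sgk1 intron 3 distal, chr10:21976358-21976558: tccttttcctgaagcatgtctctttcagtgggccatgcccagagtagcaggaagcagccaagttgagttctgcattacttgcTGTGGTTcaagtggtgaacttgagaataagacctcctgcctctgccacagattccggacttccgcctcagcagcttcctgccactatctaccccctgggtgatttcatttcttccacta
Sesn3 upstream distal, chr9:14244617-14244817: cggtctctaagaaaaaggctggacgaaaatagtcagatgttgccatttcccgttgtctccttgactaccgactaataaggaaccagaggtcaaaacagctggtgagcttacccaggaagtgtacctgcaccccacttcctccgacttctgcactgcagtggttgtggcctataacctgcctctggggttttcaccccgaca
Phlpp1 upstream distal, chr1:106151900-106152100: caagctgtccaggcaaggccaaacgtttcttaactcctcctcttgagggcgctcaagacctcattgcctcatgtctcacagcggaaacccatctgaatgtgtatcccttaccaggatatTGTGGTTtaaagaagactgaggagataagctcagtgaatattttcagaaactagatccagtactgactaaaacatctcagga

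The TSC arm had promoters and nothing else. Tsc1 and Tsc2, the subunits of the complex that switches Rheb off, and Rheb itself each held exactly 1 region, with promoter signal values of 13.44, 23.19 and 17.74. Class means add up to 1.7 distal regions for these 3 genes, a number so small that 0 says little. The Tsc2 region is shared with the divergent neighbour Nthl1.

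All 7 genes of the mTOR complexes had a promoter region, and among them were 3 of the 5 strongest promoter regions of the pathway. Mapkap1 (Sin1, a core subunit of mTORC2) reached 32.28, the 99.8th percentile of all genes with a promoter region, Rptor (Raptor, the scaffold of mTORC1) 27.08 and Deptor (an inhibitor bound to mTOR) 23.61. Mtor followed at 21.67, Mlst8, a subunit of both complexes, at 17.31 and Akt1s1 (PRAS40, an mTORC1 inhibitor) at 13.58. Rictor, the defining subunit of mTORC2, had the weakest at 8.879, the 6.67th percentile. The subunits of mTORC2 thus took both ends of the range within this group.

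Distal regions of the mTOR complex genes were close in number to those of their territory classes. The 7 genes held 12 regions against 9.07 from class means, and their 5 distal regions compare with 5.44. These distal regions lay at 5 of the 7 genes, whereas 27.6% of all genes had one. Rptor held the strongest of them, in intron 2 at 26.25 (chr11:119670968-119671542), the second strongest distal region of the pathway. Single distal regions were assigned to Mapkap1 at 14.55, Deptor at 14.51, Rictor at 12.91 and Akt1s1 at 7.546, and none to Mtor or Mlst8.

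Among the kinases and targets downstream, Sgk1 stood apart in number of regions. Sgk1 is a kinase related to Akt that mTORC2 and PDK1 activate, and it held 8 of the group's 16 regions, 7 of them distal. Its promoter region at 14.93 covered a cluster of starts that includes a 431-residue transcript, 112482 bp downstream of the 5' end. At the 5' end, the start of a 524-residue transcript, lay only a pseudoreplicated region at 9.785 with an IDR of 0.388. The distal regions fell into groups: 3 in intron 1 at 17.33, 5.292 and 4.82, 1 in intron 2 at 11.84, 2 in intron 3 at 18.13 and 10.92, and 1 beyond the 3' end at 11.47. In its territory class, 92.2% of genes held fewer regions.

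The translation repressors and the remaining kinases had 1 or 2 regions each. Rps6kb1 and Rps6kb2, the S6 kinases, held a promoter region at 17.46 and 15.87, the former shared with Tubd1. Eif4ebp1 and Eif4ebp2 encode repressors of the cap-binding protein eIF4E that mTORC1 inactivates. Eif4ebp2 had 2 promoter regions, at 15.9 over its start and at 11.01 downstream of it. Eif4ebp1 had a promoter region at 11.51 and a distal region at 10.12. Gsk3b, a kinase that Akt inhibits, held a promoter region at 12.93 and a distal region at 10.74. A pair of stronger Gsk3b regions in introns 10 and 7, at 15.83 and 14.77, fell outside the thresholded list with an IDR of 0.0558 and 0.152.

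Amino acid sensing on the lysosome is represented by Rraga, Rragc, Rragd and Lamtor1, which encode Rag GTPases and the subunit that anchors their Ragulator platform. Rragc at 26.14 and Lamtor1 at 24.36 had the third and the fourth strongest promoter region of the pathway, and Rraga reached 20.59. Rragd, in contrast, had no thresholded region. At its start the pseudoreplicated list held regions of 6.546 and 4.476 with an IDR of 0.168 and 0.388, both above the threshold of 0.05. No distal region was assigned to any of the 4 genes, where class means add up to 1.85. The Rragc region is shared with 4930535I16Rik and the Lamtor1 region with Tomt.

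The stress-induced inhibitors of mTORC1 held as many regions as the catalytic subunits. Sesn1 and Sesn3 encode sestrins, which restrain mTORC1 through the GATOR complexes and AMPK, and Ddit4 encodes REDD1, which acts through TSC. These 3 genes held 16 regions against 4.89 from class means and 12 distal regions against 3.13. Sesn3 held 8 regions, with promoter regions at 14.41 and 10.57 and distal regions between 8.914 and 18.6, of which 4 lay upstream at up to 74822 bp. Ddit4, a gene of 1 annotated start, held 5 regions: a promoter region at 17.05 and distal regions at 18.59, 14.47, 11.3 and 8.72. In its territory class, 96.6% of genes held fewer. Sesn1 held 3 assigned regions, the strongest in intron 1 at 20.88 and another in intron 1 at 13.15. It had promoter regions at both of its coding starts, which lie 77504 bp apart, at 12.83 for the 492-residue transcript and 11.5 for the 551-residue one, and the latter is shared with and assigned to the divergent neighbour Cep57l1.

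Across all roles, promoter signal was ordinary in size. The strongest promoter region of the 38 genes had a median signal value of 15.56, with quartiles of 12.86 and 20.61, and all genes with a promoter region had 16.59 with quartiles of 12.73 and 20.53. Of the 38 genes, 11 lay above the upper quartile of all genes and 9 below the lower one. The median over all genes lay within the 95% interval of the median over the 38, 13.46 to 17.46, taken from the order of their values. The plot of promoter signal orders the genes.

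**Figure D3:**
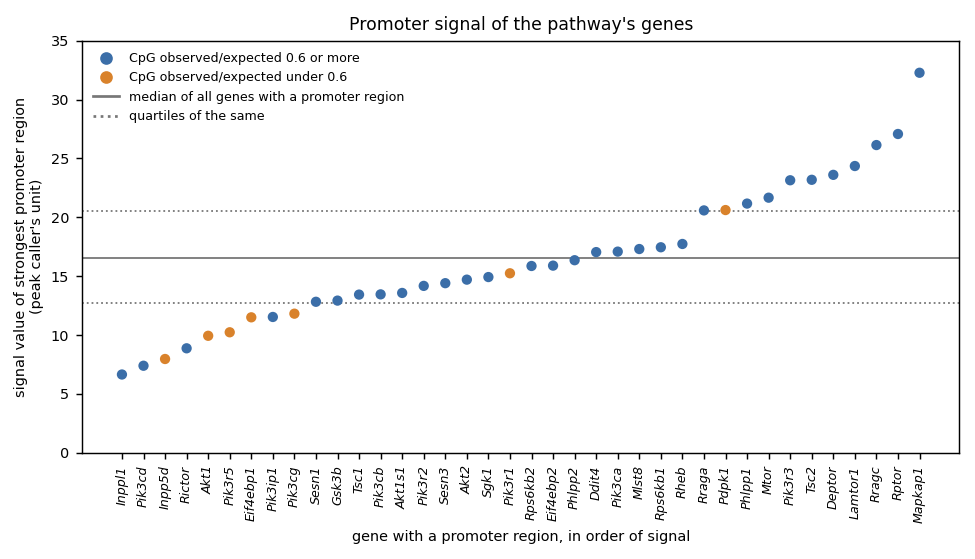
Signal value of the strongest promoter region (vertical axis, peak caller's unit) for the 38 genes that have one, in order of signal (horizontal axis). Orange points mark genes whose strongest promoter region has a CpG observed/expected ratio under 0.6, the solid line is the median of all genes with a promoter region (16.59) and dotted lines their quartiles. Genes run from Inppl1 at 6.654 to Mapkap1 at 32.28.

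The genes were also split by the CpG content of their strongest promoter region. At 7 of the 38 genes, Pik3cg, Pik3r1, Pik3r5, Inpp5d, Pdpk1, Akt1 and Eif4ebp1, the strongest promoter region had a CpG observed/expected ratio under 0.6, measured over 150 bp on each side of the summit. All 7 had a distal region, 26 in total with a median of 3 per gene, and 12 of the 26 belonged to Pik3r1. The other 31 genes held 39 distal regions with a median of 0, and 15 of the 31 had any. The median promoter signal value was 11.51 in the 7 and 16.36 in the 31. Over all genes the same split gave 49.8% and 37.1% with a distal region, and median promoter signal values of 14.94 and 16.88. The pathway genes differed in the same direction as all genes, and no test was made of the size. Pik3r1 and Pdpk1 each also had a CpG-richer promoter region, with a ratio of 0.849 at 14.65 for Pik3r1, at its 5' end, and of 0.966 at 16.78 for Pdpk1. When every promoter region of a gene had to lie under 0.6, a setting chosen after seeing the data, the group held the other 5 genes, each with a distal region, 12 in total with a median of 3. The remaining 33 genes then held 53 distal regions with a median of 1, and 17 of the 33 had any. Over all genes this second split gave 47% and 38.2% with a distal region.

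Separate promoter regions were frequent. At least 2 were present at 10 of 40 genes (25%, interval 14.2 to 40.2), against 8.14% of all genes and 8.76% after weighting: 3 each at Pik3cd and Pik3r1, and 2 each at Pik3cg, Pik3r2, Pik3r5, Inpp5d, Pdpk1, Eif4ebp2, Sesn1 and Sesn3. At Pik3r1, Pik3r2, Pdpk1 and Sesn1 they lay at starts far apart along the gene, whereas at Pik3r5, Eif4ebp2 and Sesn3 they lay at or near neighbouring starts. The comparison did not match genes on their number of annotated starts, which ranged among these genes from 2 at Eif4ebp2 to 13 at Pik3cd.

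Most distal regions of the pathway lay inside its own genes. Of the 65, 36 lay in introns, all of the assigned gene and 15 of them in intron 1, 26 in intergenic sequence, 2 in coding exons and 1 in a 3' UTR. The distance to the nearest TSS of the assigned gene had a median of 15011 bp, and 24 lay within 10 kb and 61 within 50 kb. Locations and distances were not counted over all distal regions, so neither is shown to be particular to the pathway. The pathway's distal regions were somewhat weaker and simpler than distal regions in general. Their median signal value was 11.47 against 12.57, and their median width was 450 bp against 524. Of them, 21.5% had 2 or more summits, against 37.5%. Promoter regions had 2 or more summits in 70% against 72.9%.

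Below the threshold, further regions lay near the same genes. The pseudoreplicated list held 81 more regions assigned to 25 of the 40 genes, 62 of them distal, with signal values from 2.22 to 15.83 and a median of 5.005. A few reached 11.47, the median of the pathway's thresholded distal regions. At Sesn1 a region in intron 1 reached 15.24 with an IDR of 0.0606, and at Pik3cg a region 63935 bp downstream of the 5' end reached 11.47 with an IDR of 0.222. Tsc1, Tsc2, Mtor, Mlst8 and both S6 kinase genes gained none. Regions were added in general: the mean over all genes rose from 1.13 to 2.13, against 2.85 to 4.88 for the 40 genes. The share of all genes that gained a region was not counted.

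Short sequence motifs were counted within 100 bp of the strongest summit on both strands, with the share of all regions of the same kind beside each. A match is a description of letters and says nothing of binding. In the 50 promoter regions, ETS letters (CCGGAAG) occurred in 8 (16%, interval 8.34 to 28.5), against 17.6% of all promoter regions, and GC box letters (GGGCGGGG) in 11 (22%) against 26%. In the 65 distal regions, AP-1 (TGANTCA) and RUNX (TGTGGTT) letters each occurred in 11 (16.9%, interval 9.72 to 27.8), against 13.3% and 13.6%. All 4 shares lay within the interval around the pathway's value. The letters of the CLEAR motif of lysosomal genes (TCACGTGA, which contains the E-box CACGTG) had no match in either kind of region, against 1.57% and 0.449% of all regions, and the upper limits of the intervals were 7.13% and 5.58%.

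AP-1 and forkhead letters (TGTTTAC) were above the general share in both kinds of region, and the counts were small. AP-1 letters were in 3 of 50 promoter regions (6%) against 3.95%. Within 50 bp of the summit, AP-1 letters were in 6 of 65 distal regions (9.23%), and no general share is given for that window. Forkhead letters occurred in 3 of 50 promoter regions (6%, interval 2.06 to 16.2), against 2.07%, and in 4 of 65 distal regions (6.15%, interval 2.42 to 14.8), against 3.79%. The promoter matches were at Phlpp1, Pik3ip1 and Tsc1 and the distal ones at Deptor, Pik3cg, Rictor and Sgk1. Both general shares lay within the intervals, that of promoter regions at the lower edge. Other motifs went either way. CTCF letters (AGGGGGC) were above the general share in promoter regions (18% against 12.3%) and below it in distal regions (3.08% against 6.24%). RUNX letters had no match in promoter regions, against 3.73%. The plot of motif shares gives all 11 motifs.

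**Figure D4:**
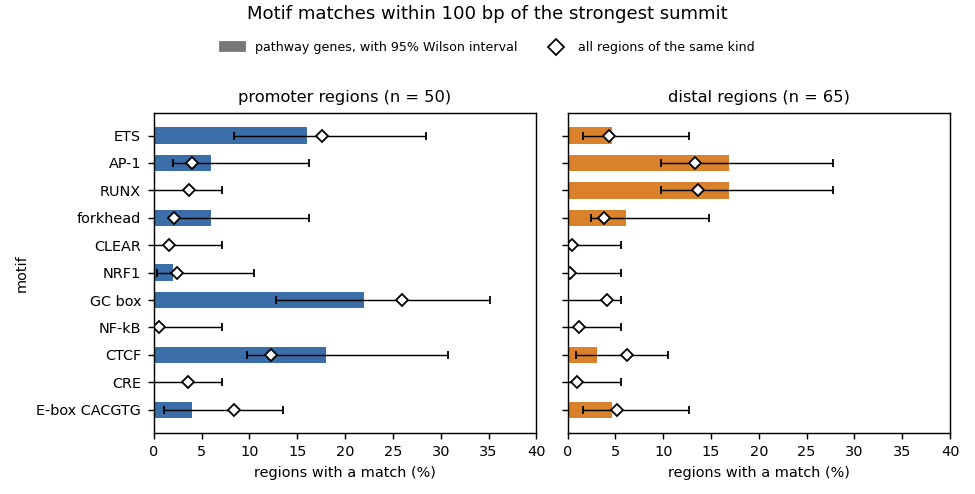
Percent of the pathway's promoter regions (left, n = 50) and distal regions (right, n = 65) with a match to each of 11 motifs within 100 bp of the strongest summit (horizontal axis, %), with 95% Wilson intervals as error bars. Diamonds give the percent of all regions of the same kind. All diamonds lie inside the intervals, and forkhead at promoter regions (6% against 2.07%) is close to the lower limit of 2.06%.

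Windows with forkhead letters that lie outside UTRs are shown because forkhead factors include the Akt substrates of the Foxo family as well as Foxp3. Capitals mark the match, which reads GTAAACA where it lies on the minus strand, and in the Rictor window also AP-1 letters a few bases away.
Phlpp1 promoter, chr1:106171388-106171588: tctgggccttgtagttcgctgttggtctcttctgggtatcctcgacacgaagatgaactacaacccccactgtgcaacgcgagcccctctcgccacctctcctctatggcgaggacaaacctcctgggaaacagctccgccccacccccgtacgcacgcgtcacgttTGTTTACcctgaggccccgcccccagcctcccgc
Sgk1 intron 1 distal, chr10:21905712-21905912: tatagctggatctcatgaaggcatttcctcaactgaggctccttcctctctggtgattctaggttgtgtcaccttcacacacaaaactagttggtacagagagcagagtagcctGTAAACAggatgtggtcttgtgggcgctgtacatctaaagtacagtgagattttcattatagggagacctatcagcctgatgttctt
Rictor intron 2 distal, chr15:6726546-6726746: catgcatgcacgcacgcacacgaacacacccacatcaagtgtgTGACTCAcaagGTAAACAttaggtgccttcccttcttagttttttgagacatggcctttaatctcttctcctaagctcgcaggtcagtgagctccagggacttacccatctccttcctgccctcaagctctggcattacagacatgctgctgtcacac
Deptor upstream distal, chr15:55106629-55106829: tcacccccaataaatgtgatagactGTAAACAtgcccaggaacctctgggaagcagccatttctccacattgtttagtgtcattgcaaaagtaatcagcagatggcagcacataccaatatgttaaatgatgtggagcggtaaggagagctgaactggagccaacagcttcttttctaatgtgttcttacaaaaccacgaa
Pik3cg upstream distal, chr12:32292212-32292412: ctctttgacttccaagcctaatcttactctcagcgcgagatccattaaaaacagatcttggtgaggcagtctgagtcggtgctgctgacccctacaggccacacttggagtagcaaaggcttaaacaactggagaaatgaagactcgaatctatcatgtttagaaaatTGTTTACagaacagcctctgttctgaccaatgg

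The AP-1 matches included a Ddit4 region with a pair of sites, downstream of the gene at chr10:59939009-59939449, and the ETS matches included both promoter regions of Eif4ebp2 and the promoter of Pik3ca, which also holds AP-1 letters. These windows are shown for the spacing of their matches, in capitals.
Ddit4 downstream distal, chr10:59939208-59939408: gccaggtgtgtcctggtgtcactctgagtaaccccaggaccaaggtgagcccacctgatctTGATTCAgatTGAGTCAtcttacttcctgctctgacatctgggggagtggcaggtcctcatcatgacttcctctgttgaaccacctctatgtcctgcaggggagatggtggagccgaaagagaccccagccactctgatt
Eif4ebp2 promoter at 15.9, chr10:61452759-61452959: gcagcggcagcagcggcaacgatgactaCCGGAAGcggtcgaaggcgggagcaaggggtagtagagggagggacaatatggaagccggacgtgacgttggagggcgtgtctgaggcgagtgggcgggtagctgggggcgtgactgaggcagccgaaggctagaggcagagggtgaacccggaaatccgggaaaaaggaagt
Eif4ebp2 promoter at 11.01, chr10:61451656-61451856: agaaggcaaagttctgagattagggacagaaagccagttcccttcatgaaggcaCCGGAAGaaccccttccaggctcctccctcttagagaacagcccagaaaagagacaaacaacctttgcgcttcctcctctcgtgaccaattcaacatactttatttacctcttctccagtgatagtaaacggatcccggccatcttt
Pik3ca promoter, chr3:32396899-32397099: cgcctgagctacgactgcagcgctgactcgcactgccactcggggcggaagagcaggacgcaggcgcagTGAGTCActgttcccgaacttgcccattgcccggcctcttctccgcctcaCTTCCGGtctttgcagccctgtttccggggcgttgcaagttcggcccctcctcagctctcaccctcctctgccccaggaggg

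Other genes of the pathway, taken from a list of 85 of which 84 were found, were read against the same background. A promoter region was present at 72 of 84 (85.7%, against 49.1% of all genes and 48.8% after weighting by territory class). A distal region was present at 38 of 84 (45.2%, against 27.6% and 30.8%). More regions than the median of their territory class were held by 55 of 84 (65.5%, against 34.8% and 35%). All 23 genes found among further Rag, Ragulator, GATOR and sensor genes had a promoter region. A distal region was assigned to 7 of these 23, near the general share of 27.6%. The most regions were assigned to Trib1 and Ppp2r5c with 12 each, and to Inpp4b and Slc38a1 with 10 each. Trib1 (a pseudokinase) had 12 distal regions and no promoter region. Others with no promoter region were Pik3c2g, Pik3ap1, Gab2, Irs1, Inpp5b, Tcl1, Prr5, Eif4ebp3, Grb10, Prkaa2 and Ddit4l.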

How the data were processed

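ATAC-seq of 2 libraries was used through 3 peak lists on mm10 that derive from 1 alignment, per the README deposited with each library. The sources used here name no aligner, peak caller, filter or shift of reads for the transposase. The deposited signal value is the enrichment per peak by the authors' peak caller, with an unstated reference. Deposited −log10 p-values and q-values per peak are the authors' own, as are the −log10 IDR and the ranking values of the 2 IDR inputs, whose origin is not given. The deposited score of the thresholded list corresponds at its lowest value, 540, to an IDR of 0.05. Aligned reads and signal tracks were not used here. A further B cell marker is not reported here.

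The 48668 thresholded peaks were merged where they overlapped by 1 bp or more, each region keeping its strongest peak's summit and signal. Genes came from GENCODE M21 and sequence from the RefSeq copy of GRCm38.p6. Bases nearest to a gene's TSSs defined its territory, in 10 classes. The 40 genes, the other lists and the motifs were chosen with earlier results of these data known, so no test over the list is given. Values are given in full for the genes with most regions, none at the promoter, the strongest regions or several promoter regions. Alternatives covered the pseudoreplicated and stricter lists, promoter windows, assignment distance, TSS choice, merging, classes and the motif window. Scripts (Python 3.11.15; pandas 2.3.3, numpy 2.4.6, scipy 1.17.1, matplotlib 3.10.9) were tested on simulated data.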

Additional observations from a re-analysis of the deposited data

How the results depend on the processing

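Of 49 alternatives of the 8 summary counts and medians, 43 stayed within 1.5-fold of the reported count, or within the interval of the median signal, and 6 moved. With the pseudoreplicated list the 40 genes held a mean of 4.88 regions per gene and 127 distal regions. With the stricter list they held 39 distal regions and a median of 1 region per gene. Peaks counted without merging gave a mean of 5.03 and a median of 4. Each of these settings changes the number of calls by its own construction, and the mean over all genes moved with it, to 2.13, 0.865 and 2.13 regions per gene. Genes with a promoter region ranged from 34 with 1 TSS per gene to 39 with the pseudoreplicated list, while the share of all genes was 45.2% and 55.7%. Distal regions of genes with a CpG-poor promoter fell from 26 to 12 in the setting added after seeing the data, in which every promoter region had to be CpG-poor, because Pik3r1 and Pdpk1 left the group. Of 44 motif alternatives, 40 stayed within the reported interval. No paired analysis was possible because the lists give no value per library, and for the same reason no library could be left out. Depth is unknown, so weak regions such as those at Rragd and at the upstream starts of Sgk1 and Pik3cd limit any statement of absence.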
